A study of Drosophila melanogaster with 4 samples.

Results

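Chains of closely spaced BEAF regions were described in wild-type Drosophila melanogaster embryos. A chain was a run of 4 or more consecutive enriched regions on a chromosome arm in which every neighbouring pair of midpoints lay at most 8000 bp apart. Of the 4869 enriched regions that the combined list placed on the 6 arms (X, 2L, 2R, 3L, 3R and 4), 1097 belonged to 225 such chains and 3772 did not. The whole combined list held 5003 enriched regions. The members were chosen by their measured positions in the combined list, so close spacing is a property of the choice and not a result.

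The chromatin came from Oregon-R embryos, genotype wild type, staged at 14 to 16 h and fixed in 1.8% formaldehyde. The study has 2 ChIP samples, precipitated with a rabbit polyclonal antibody (BEAF-HB) raised in the submitters' laboratory against part of the BEAF protein, and 2 input DNA samples of the same stage. Whole embryos were used, so a region can come from any of their cell types, and different members of a chain need not be bound in the same cells. Each ChIP replicate has its own region list and the combined replicate set has another. Free-text labels call ChIP replicate 1 input and give the antibody for input replicate 1, the reverse of both titles. Titles were followed, and the ChIP list of replicate 1 is used under that limit. No region list of the input samples was used here, and nothing in the labels says that the ChIP replicates were separate embryo collections. The files carry no read counts, so depth is unknown, and intervals below cover the counting of regions only.

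BEAF stands for boundary element-associated factor. The protein binds DNA and was first known from the scs' boundary element beside a heat-shock locus, and it recognises clustered copies of the letters CGATA. It is grouped with the insulator proteins, which in reporter assays can keep an enhancer from acting on a promoter across them. In Drosophila chromatin its sites are known to lie mostly close to the start sites of active genes, and often between genes that are packed head to head. No sequence or gene annotation of release 5, the coordinate system of the files, was used here, so regions are given by position without gene names, motifs or letters.

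Most chains were short, and a few ran to 9 or 10 regions. Among the 225 chains, 125 held 4 regions, 42 held 5, 39 held 6, 7 held 7, 7 held 8, 2 held 9 and 3 held 10. The median chain spanned 18.9 kb from the first base of its first region to the last base of its last, with a range of 10.9 to 43.3 kb. All chains together spanned 4.70 Mb, or 3.90% of the arms, and held 22.5% of the arms' regions. Inside the spans 60.0% of the bases lay in a region, against 8.39% of the bases outside them. A contrast of this direction follows from the rule, since spans begin and end at regions and hold only close neighbours. In the median chain the covered share was 60.7%, and the chains ranged from 37.4 to 96.8%.

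If the same number of midpoints were spread evenly and independently along each arm, arithmetic gives 346 regions in 78.6 chains, or 7.11% of the regions. That figure ignores the widths of regions, mappability and gene density, and it is given as a description with no test. By the same arithmetic 28.0% of neighbouring pairs would lie within 8000 bp, and 1990 of 4863 pairs (40.9%) did. With only the regions found in both replicate lists, 600 of 3803 regions (15.8%) formed 129 chains, against 3.94% by the arithmetic. With the 50% of regions that scored higher, 190 of 2435 (7.80%) formed 44 chains, against 1.29%.

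Chains were ranked by their number of regions and, among equals, by their summed score. The first by this rule, called the longest here, lay on 3L, at 12998666 to 13041236, with 10 regions in 42.6 kb. All 10 were found in both replicate lists, each of which also held 10 regions there in a single run. Strong and weak regions were interspersed along it. The score, which the authors gave to each region on a scale that is not stated, was 2.94 for the first member in the combined list, 2.83 in replicate 1 and 3.10 in replicate 2. The second member, 13003388 to 13005874, scored 0.84, 0.69 and 1.12 in the combined, replicate 1 and replicate 2 lists. The third, 13007082 to 13012522, scored 3.38, 3.36 and 3.49 in the same lists and was also the widest, at 5441 bp. Within this chain each list thus put a weak region between a pair of strong ones.

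The fourth member of the 3L chain, 13014464 to 13017630, scored 3.64 in the combined list, 3.65 in replicate 1 and 3.80 in replicate 2. The fifth scored 0.75, 0.72 and 0.86, and the sixth 1.15, 1.05 and 1.34, again in the combined, replicate 1 and replicate 2 lists. The seventh, 13028670 to 13031428, was the strongest of the chain in all 3 lists, with 3.87, 3.72 and 4.07. The eighth was weaker again, with 1.28, 1.16 and 1.50 in the same 3 lists. The last pair, at 13036376 to 13038858 and 13038948 to 13041236, scored 2.11 and 1.85 in the combined list, 2.06 and 1.81 in replicate 1 and 2.26 and 1.98 in replicate 2. These neighbours were listed as separate regions although only 89 bp lay between their facing edges. Neighbouring midpoints of the chain were between 2475 and 6245 bp apart.

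**Figure D1:**
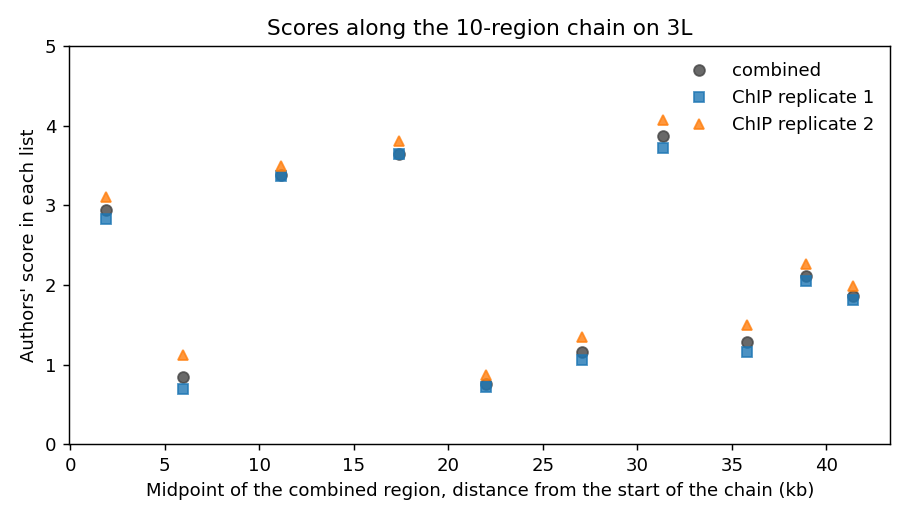
Authors' score (y axis) of the 10 members of the longest chain on 3L against the distance of the combined region's midpoint from the start of the chain in kb (x axis). Circles are the combined list, squares ChIP replicate 1 and triangles ChIP replicate 2, and the 3 marks of a member lie close together while neighbouring members range from 0.75 to 3.87 in the combined list.

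The other chains of 9 or 10 regions had the same mixed make-up. On 3R, the 10 regions at 5376626 to 5418204 had scores from 0.18 to 3.79 in the combined list, and 5 of them scored 2 or more. A weak region of this chain, 5395576 to 5396880 (0.27), was in neither replicate list. Without it and a second such region, 5406616 to 5407932 (0.18), each replicate list kept 8 regions there, and the longest run in either list was 4. In the combined list such weak regions joined stretches that the replicate lists kept apart.

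The second chain of 10 on 3R, at 8247326 to 8287012, had scores from 0.15 to 3.27, with 8 of its members in the replicate 1 list and 9 in that of replicate 2. It held the closest pair of midpoints of any chain, 1485 bp apart, at 8254888 to 8255994 (0.38) and 8256068 to 8257784 (0.19). The chain of 9 on X, at 6566850 to 6603724, had the highest median score among the 10 longest, 2.74. Its strongest member, 6587172 to 6590526, scored 4.22 in the combined list, 4.08 in replicate 1 and 4.45 in replicate 2. The chain of 9 on 2L, at 1141882 to 1185088, had a median of 0.64 and held 2 members that scored 2 or more, so chains of equal length differed widely in score.

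The remaining 5 of the 10 longest chains held 8 regions each and had the highest summed scores of the 7 chains of that size. They lay on 2R at 14037856 to 14073106, on X at 2591082 to 2634360 and 17720212 to 17761016, on 3L at 9416158 to 9454860, and on 3R at 12050114 to 12091192. The X chain at 2591082 was the widest of all chains, at 43.3 kb, and all 8 of its regions were in both replicate lists. In the 2R chain 6 of 8 regions were in both lists, and the highest score there, 4.10, stood at its last region, 14070478 to 14073106. Each of the 10 longest chains had at least 4 regions in a single run in both replicate lists, and 2 of the 10 had all their members in both lists.

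**Figure D2:**
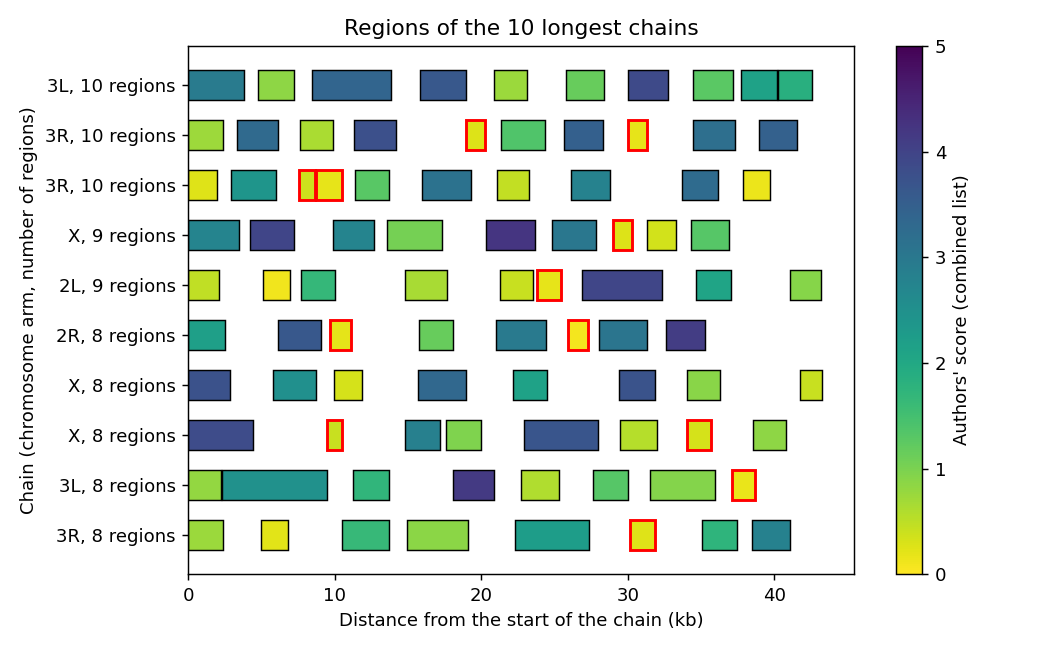
Regions of the 10 longest chains drawn to scale, 1 chain per row, with the distance from the start of the chain in kb on the x axis and the authors' score in the combined list as fill colour. Red outlines mark members missing from at least 1 replicate list, which all have low scores, and dark strong regions stand between pale weak ones in every row.

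The strongest members were among the strongest regions of the arms. The highest score of any member was 4.86, at 24887356 to 24890842 on 3R, which ranked 4 of 4869 in the combined list and scored 4.75 in replicate 1 and 5.04 in replicate 2. It was the third of 4 regions, between 24880360 to 24882894 (3.86) and 24891068 to 24894990 (0.56). On 2L, 6966082 to 6969526 scored 4.78, 4.81 and 4.96 in the combined, replicate 1 and replicate 2 lists and ended a chain of 6. Also on 2L, 8363430 to 8367652 scored 4.78 in the combined list, 4.74 in replicate 1 and 4.41 in replicate 2, where a single region took in its weak neighbour (8361388 to 8363386, 0.35) as well. On 3L, 20293994 to 20297178 scored 4.73, 4.72 and 4.86 in the same 3 lists.

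The 10 highest-scoring members lay in 10 different chains, and 4 of the 10 stood at the end of theirs. Besides the 4 above they comprised 539330 to 542008 on 3L (4.61), 25870566 to 25873442 on 3R (4.50) and 4 on X. Those on X were 17041018 to 17044226 (4.59), 14126826 to 14129698 (4.58), 7794016 to 7797060 (4.54) and 10637398 to 10640652 (4.51). Of the 100 highest-scoring regions on the arms, 22 were members, against 22.5% of all regions on the arms, so the very strongest regions were in chains about as often as any.

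Chain members scored slightly higher than the other regions. Their median score was 1.04 (quartiles 0.36 and 2.69), against 0.84 (0.31 and 2.65) for the other regions. Among these others, regions in runs of 2 and of 3 had medians of 0.99 and 1.03, near that of the members. Those without a neighbour within 8000 bp had 0.68, so the difference lay mainly there. Of the members, 385 of 1097 (35.1%, 95% exact binomial interval 32.3 to 38.0) scored 2 or more, against 1240 of 3772 other regions (32.9%, 31.4 to 34.4). Among all regions on the arms the share was 33.4%, so the members' share was near the background. Regions that scored 2 or more are called high-scoring here, a limit chosen with earlier results of these data known. The scores show no clear gap there. From 1.5 to 2 stood 80 members and 239 other regions, and from 2 to 2.5 stood 86 and 225. With a limit of 3 the shares were 20.2% of members and 20.5% of other regions. The intervals overlap, regions of a chain are not independent draws, and score comes from the same enrichment as the positions, so no test was made.

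Regions with the lowest scores were the least often in chains. In the lowest score quartile, up to 0.323, 231 of 1218 regions (19.0%, 16.8 to 21.3) were members. The shares were 23.0% in the second quartile, 25.2% in the third and 22.9% in the highest, in which 279 of 1217 regions (20.6 to 25.4) were members. The difference therefore lay between the lowest quartile and the rest and did not grow with score. Among the 50% of regions with higher scores, rebuilt into chains of their own, the median of members minus that of the others was -0.11.

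**Figure D3:**
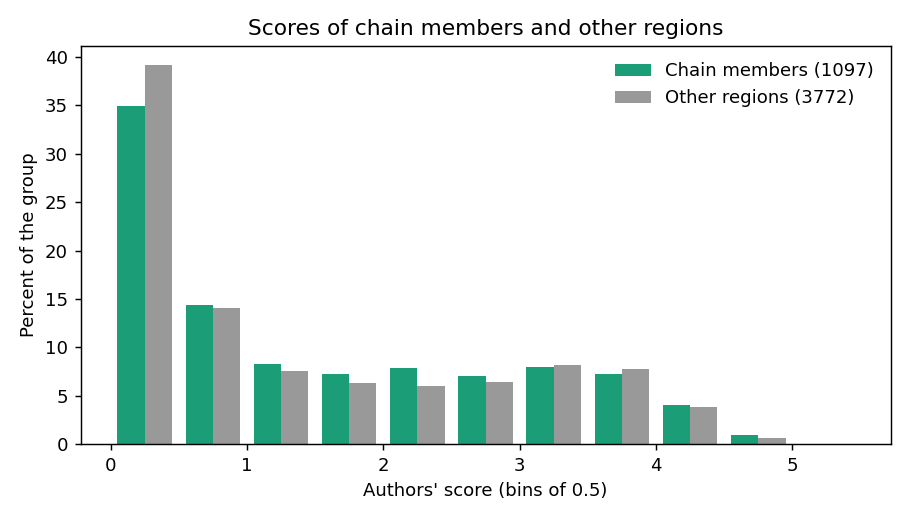
Percent of chain members (green, left bars) and of other regions (grey, right bars) in each bin of 0.5 of the authors' score in the combined list. In the lowest bin stand 34.9% of members and 39.2% of other regions, and from 3 upwards the bars are close to equal.

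Membership in a longer run did not go with a steadily higher score. Regions without any neighbour within 8000 bp had a median score of 0.68, and those in runs of 2 and of 3 had 0.99 and 1.03. In chains of 4, 5 and 6 regions the medians were 1.05, 0.81 and 1.08, and in chains of 7 to 10 the median was 1.23 over 153 regions. Solitary regions thus had the lowest median and chains of 7 to 10 the highest, but chains of 5 stood below runs of 2. The share with a score of 2 or more was 29.6% among solitary regions, 35.5% in runs of 2 and 36.3% in runs of 3. It was 36.6, 29.0 and 35.9% in chains of 4, 5 and 6, and 37.3% (29.6 to 45.4) in chains of 7 to 10.

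Width differed little. The median member was 2375 bp wide, against 2341 bp for the other regions. The difference turned to -19 bp when only regions found in both replicates were used and to -83 bp in the higher-scoring 50%, and it was 110 bp with edge gaps in place of midpoints. Wide regions limit how closely midpoints can lie, so width is tied to the rule. Regions over 5000 bp made up 42 of 1097 members (3.83%, 2.77 to 5.14), against 162 of 3772 other regions (4.29%, 3.67 to 4.99) and 4.19% of all regions on the arms. On X lay 16 of the 42 wide members (38.1%), against 58 of the 162 other wide regions (35.8%). The widest member was 9048618 to 9059858 on X, 11241 bp wide with a score of 3.06, in a chain of 6 and a single region in each replicate list.

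Pooled over all spacings, strong and weak regions were mixed within chains nearly as between other neighbours. Of 872 neighbouring pairs inside chains, both regions scored 2 or more in 112 (12.8%), 1 of the pair did in 389 (44.6%) and neither did in 371 (42.5%). In runs of 2 or 3 the shares were 13.9, 43.8 and 42.3% of 1118 pairs, and among 2873 neighbours more than 8000 bp apart they were 11.4, 40.9 and 47.7%. Inside chains the mix differed with spacing. Of 337 pairs at most 4000 bp apart, both regions scored 2 or more in 8.90% and neither did in 52.5%. Of 535 pairs further apart, the shares were 15.3 and 36.3%. Across pairs inside chains, the scores of neighbours had a Pearson's r of 0.03 and a Spearman's rho of 0.09. Among the distant neighbours these were 0.06 and 0.06. Pairs share members and libraries, so the correlations are descriptions.

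Regions above and below a score of 2 stood together in 182 of the 225 chains. Of all members 35.1% scored 2 or more, so independent draws of 4 or more regions would mostly be mixed as well. The count therefore does not set chains apart from other regions. A single member scored 2 or more in 70 chains, 2 did in 67, 3 in 34, 4 in 11 and 5 in 7, and no member did in 36 chains. All members scored 2 or more in 7 chains, among them 16565862 to 16585654 on 3L and 510264 to 531558 on X, each of 4 regions. High-scoring members were adjacent to no other high-scoring member in 109 of the chains that had any. These 109 include the 70 chains with a single such member, in which no adjacent pair was possible. The longest unbroken stretch was 2 in 61 chains, 3 in 12, 4 in 6 and 5 in 1. Where 2 or more members scored high, most chains thus had an adjacent pair. End members had a median score of 0.94 and interior members 1.11, and 34.9 and 35.2% of them scored 2 or more. The interior median was thus slightly higher, while the share of high-scoring regions was about equal at the ends and inside.

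The 3 chains with the highest and the 3 with the lowest median scores differed in how they appeared in the replicate lists. The highest median, 3.77, belonged to 5 regions on X at 20052260 to 20068802, followed by the 3L chain just named (3.24) and the X chain at 510264 (3.23). All 3 had 4 or more regions in a single run in both replicate lists. The lowest medians were 0.15 for 5693746 to 5708112 on 3R, 0.19 for 6202970 to 6218538 on 3R and 0.19 for 7519878 to 7540474 on 2R. Each of these held 4 regions, of which 1, 1 and 2 were in both replicate lists, and neither replicate list formed a chain there. Other chains went against this order. The chain at 3984736 to 4020224 on 2R (median 2.77) had all 6 members in both lists, yet the longest run in either was 3. The chain at 16370714 to 16395870 on 3L (0.29) had runs of 4 and 5 regions in replicates 1 and 2.

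Members were found in the replicate lists about as often as other regions. Of the members, 881 of 1097 (80.3%, 77.8 to 82.6) overlapped a region in both lists by at least 1 bp, against 2922 of 3772 other regions (77.5%, 76.1 to 78.8) and 78.1% of all regions on the arms. In neither list were 103 members (9.39%) and 378 other regions (10.02%), against 9.88% of all. The 216 members not in both lists had a median score of 0.25 and none above 0.75, while those in both had a median of 1.66. The combined list was made from the same ChIP samples, so this overlap is not independent support.

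The replicate lists, taken through the same rule, gave fewer chains than the combined list, and mostly at the same places. Replicate 1 had 738 members in 158 chains and replicate 2 had 764 members in 160, a mean of 751 ± 18.4 members and 159 ± 1.41 chains (SD, n = 2). These were 18.1% of the 4068 regions of replicate 1 and 18.0% of the 4245 of replicate 2 on the arms. Of the replicate 1 members 93.2% overlapped a combined chain member, and 93.8% of the replicate 2 members did. Only 11 chains of replicate 1 and 9 of replicate 2 touched no combined chain member.

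In the other direction, 130 of the 225 combined chains (57.8%) had 4 or more regions in a single run in both replicate lists, 35 in 1 list and 60 in neither. The median of the chains' median scores was 1.63 for the 130 and 0.59 for the 60. In replicate 1, 80 combined chains had no such run, of which 69 had under 4 regions in the span and 11 had enough regions but a wider spacing. In replicate 2 there were 75, of which 64 had under 4 regions and 11 a wider spacing. Too few regions was thus the more frequent of these states. In 87 chains every member was in both lists, and 139 chains (61.8%) had at least 4 such members.

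**Figure D4:**
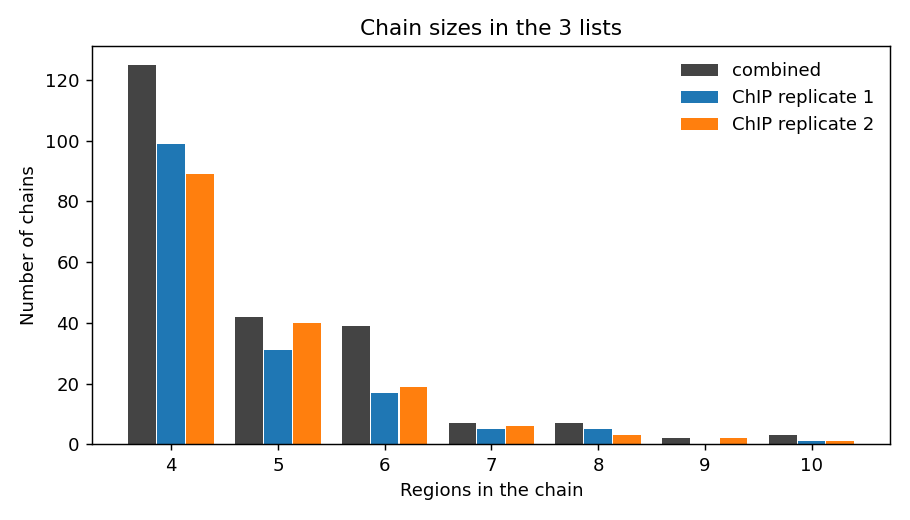
Number of chains (y axis) by the number of regions in the chain (x axis) in the combined list (dark), ChIP replicate 1 (blue) and ChIP replicate 2 (orange). Chains of 4 are the most frequent in each list, with 125, 99 and 89 chains, and a chain of 10 occurs once in each replicate list and 3 times in the combined one.

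Within chains, neighbouring midpoints were a median of 4577 bp apart (quartiles 3423 and 5981 bp) and at least 1485 bp. Since regions are a few kb wide, the facing edges of neighbours were separated by a median of 1843 bp, and in 247 of 872 pairs (28.3%) by less than 1000 bp. In 30 pairs under 100 bp lay between the edges, and the smallest gap was 1 bp. A replicate 1 region took in both members of 1 pair, and a replicate 2 region both members of 12 pairs. With neighbours under 500 bp apart joined into a single region, a setting chosen after the data were seen, 766 of 4570 regions formed 160 chains, against 225 without joining.

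The closest pairs were also the weakest. In 142 pairs at most 3000 bp apart, the higher-scoring partner had a median score of 1.13 and the lower-scoring 0.29, and in 62 pairs (43.7%) both partners were in both replicate lists. Between 3000 and 4000 bp the medians were 2.63 and 0.44 and the share was 66.2% of 195 pairs. From 4000 to 8000 bp, in steps of 1000 bp, the share lay between 69.5 and 73.6%. The part that region width plays in this was not tested.

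The tightest chain of more than 4 regions lay on X, at 11472056 to 11494656, with 8 regions and a median spacing of 2122 bp. Its first region scored 2.46 in the combined list, 2.41 in replicate 1 and 2.53 in replicate 2. The other 7 were 1041 to 1811 bp wide and scored between 0.34 and 0.75 in the combined list. Of these 7, 5 were in neither replicate list. Replicate 1 held 2 regions in the span and replicate 2 held 3, so only the combined list formed a chain there. The other 2 of the 3 tightest were 10198260 to 10211602 on 2L (median spacing 2117 bp) and 8945694 to 8961002 on 3L (2650 bp), both of 4 regions and neither a chain in a replicate list.

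Spacings were uneven in nearly all chains. The coefficient of variation of the midpoint spacings had a median of 31.5% over the 225 chains, and it was under 5% in 1 chain. The rule caps spacings at 8000 bp and region widths limit them from below, so the coefficient is tied to the rule. It rests on few spacings in the 125 chains of 4 regions. The chain under 5%, on X at 11905120 to 11916080 and picked after its values were seen, had spacings of 2869, 2848 and 2872 bp. Its 4 regions differed in strength, with combined scores of 1.44, 0.29, 4.44 and 0.43, and the second was absent from replicate 1, where no chain formed. Among chains of 6 or more regions the coefficient ranged from 9.76 to 71.8%.

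Members just inside the limit of 8000 bp and regions just outside it are given here as a description. The widest spacing kept inside a chain was 7983 bp on X, between 18302964 to 18304886 (0.30) and 18310914 to 18312902 (0.39), followed by a pair of spacings of 7951 bp on 3L. These joined 12733522 to 12736148 (1.96) with 12740960 to 12744612 (1.31), and 16378110 to 16380196 (0.33) with 16386198 to 16388010 (0.23). The closest that ended a chain were 8009, 8010 and 8025 bp, all on X. The first of these separated 13509372 to 13512078 (2.98) from 13517336 to 13520132 (2.12), and the second 7804888 to 7807662 (3.07) from 7812972 to 7815598 (4.01). The third left 11463518 to 11468450 (0.90) outside the tight chain of 8 on X, whose first region scored 2.46. Most of these 6 scores were higher than those just inside. Of the 450 flanks of chains, 57 (12.7%) had the next region within 10000 bp.

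Chains were unevenly shared among the arms. On X 297 of 1081 regions (27.5%, 24.8 to 30.2) were members, in 59 chains or 2.63 per Mb (95% Poisson interval 2.00 to 3.39). On 2L 188 of 777 regions (24.2%, 21.2 to 27.4) were members, in 39 chains, and on 2R 208 of 959 (21.7%, 19.1 to 24.4), in 43. The shares were 21.2% of 1098 regions on 3R, in 47 chains, and 18.7% of 890 on 3L, in 36 chains or 1.47 per Mb (1.03 to 2.03). X thus had the largest share and 3L the smallest of the 5 large arms, and X held 27.1% of all members against 22.2% of all regions. Members come in whole runs, so the binomial intervals of these shares take linked regions as independent draws and are too narrow. The Poisson intervals of chains per Mb on X and 3L overlapped slightly.

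A denser arm gives more chains by arithmetic alone, and even, independent midpoints would put 9.97% of the regions on X in chains and 5.18% of those on 3L. On 2L, the arm with the fewest regions per Mb, the arithmetic gives 4.37%, against the 24.2% found, a larger ratio than on X. The ratios on 3L (18.7% found) and 3R (21.2% found, 6.28% by the arithmetic) were also larger than on X. That on 2R (21.7% found, 8.70% by the arithmetic) was smaller, so the arms' order by share is not their order by ratio. On chromosome 4 the found share was 7.81%, against 9.63% by the arithmetic. It rests on 1 chain, against 1.38 by the arithmetic, so no direction can be read from it. Of the 63 neighbouring pairs there, 15 (23.8%) lay within 8000 bp, against 31.6%. In the replicate lists the share was 22.2 ± 0.42% on X, 21.9 ± 0.43% on 2L, 16.6 ± 0.19% on 3R, 16.5 ± 0.69% on 2R and 14.5 ± 0.54% on 3L (SD, n = 2). X and 2L were therefore close together in the replicates, and so were 3R and 2R, and 3L was lowest of the 5 large arms in each list. No test across samples was made with 2 replicates.

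**Figure D5:**
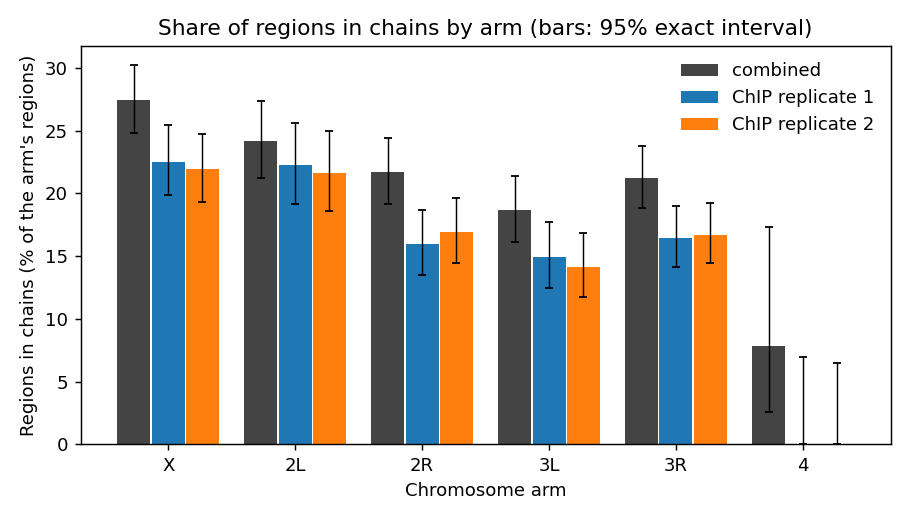
Share of each arm's regions that belong to chains, in percent (y axis), for the 6 chromosome arms (x axis) in the combined list (dark), ChIP replicate 1 (blue) and ChIP replicate 2 (orange), with exact 95% binomial intervals that cover counting only. The intervals take regions as independent draws and are too narrow, since members come in runs. The order X, 2L, then 2R and 3R, then 3L holds in all 3 lists up to the order of 2R and 3R, and neither replicate has a chain on chromosome 4.

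Chromosome 4, small and largely heterochromatic, had 1 chain in the combined list, at 1070872 to 1086136, with 5 of its 64 regions. Its 5 scores were 1.41, 0.26, 0.10, 1.84 and 0.16, and 2 of the 5 were in both replicate lists. Neither replicate list held a chain on this chromosome. Members come in runs of at least 4, so intervals over single regions set no limit for 0 of 51 and 0 of 55 regions. Even, independent midpoints would give 1.38 chains in the combined list, 0.67 in replicate 1 and 0.86 in replicate 2. A difference between the lists was therefore not detectable with this few regions.

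With the 5 large arms pooled, the share of members varied little along the sequence. In 10 equal parts of arm length, numbered from the first base of the sequence and taken over the arms together, between 19.5 and 25.4% of the regions were members, with the lowest share in part 10 and the highest in part 8. Trends that run in opposite directions on different arms would cancel in this pooling, and single arms were not divided in this way. On the scale of 1 Mb the members were uneven. Of 118 full windows, 16 had no member, the median was 8, and the highest count was 34 members in 7 chains, at 1000001 to 2000000 on X. The next were 33 members, also in 7 chains, at 10000001 to 11000000 on 2L and 29 at 20000001 to 21000000 on 3R. These 3 windows held 66, 61 and 63 regions, but the counts did not always go together. The window at 21000001 to 22000000 on X had 19 members among 35 regions, and that at 16000001 to 17000000 on X had 4 among 58.

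Successive chains of an arm were a median of 295 kb apart. No region lay between the chains in 19 of 219 such pairs, and the closest were 3326906 to 3347078 and 3352402 to 3384790 on 2R, with 5.32 kb between them and a midpoint spacing of 8231 bp. The longest stretch between chains was 3084 kb on 3L, from 717236 to 3801028, and it contained 108 regions that formed no chain. On 2L the longest was from 13388464 to 16250456, with 44 regions. Neither stretch was thus empty of BEAF regions. The 2L stretch, of 2861991 bp, was however poor in regions, since all of 2L held 777 in 23.0 Mb. The 3L stretch was not, since all of 3L held 890 in 24.5 Mb.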

How the data were processed

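Region lists of 2 ChIP samples and of the combined replicate set were analysed, and samples were grouped by their titles. Coordinates are FlyBase release 5, per the file headers. The submitters' processing notes name Bowtie 0.12.7, a read aligner. Which program called the regions, with what threshold, and how both replicates entered the combined list is not stated. The authors deposited 1 score for each region, on an unstated scale, and it served only to describe and split regions within a list.

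Regions typed as depleted were left out. The midpoint is the mean of start and end, and overlap with a replicate list means at least 1 bp. The members, the score limit of 2 and the lists were chosen with earlier results of these data known. Regions were named by rule: the 10 chains with most regions, all members of the longest, the 10 highest-scoring members in both replicate lists, the 3 chains with the smallest spacing and with the highest and lowest median score, and the 3 spacings on each side of 8000 bp. Regions named beyond these were chosen after their values were seen. For evenly spread midpoints the share in chains followed from the number of regions and the length of each arm. Shares carry exact 95% binomial intervals, which take regions as independent draws and are too narrow for membership, since members come in runs. Python 3.11.15, numpy 2.4.6, scipy 1.17.1 and pandas 2.3.3 were used, and the chain search was tested on simulated data.

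Alternatives were other spacings and chain sizes, edge gaps in place of midpoints, stricter lists, single replicate lists, a reciprocal overlap of 50% and a score limit of 3. No test was made, because the members were chosen on the same enrichment, and none was run across the 2 replicates. Depth per sample is unknown.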

Additional observations from a re-analysis of the deposited data

Results flagged for a closer look

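The same rule, applied to the sequences outside the 6 arms, found 1 chain, on XHet, an assembled sequence labelled as heterochromatin of the X chromosome that the comparisons above leave out. It ran from 69004 to 126916 and held 12 regions, more than any chain on the arms, and each replicate list also had 12 regions there in a single chain. No other chain formed among the 134 enriched regions outside the arms. The first 5 members were uneven, with combined scores of 0.31, 0.81, 3.24, 1.64 and 4.46. The last 7, picked after their values were seen, were nearly alike. They were 2119 to 2203 bp wide and scored 0.88 to 1.14 in the combined list, and their neighbouring midpoints were 5843 to 5900 bp apart, with a coefficient of variation of 0.376%. In replicate 1 these spacings had a coefficient of 0.425% and in replicate 2 of 0.731%. Over the whole chain the spacings ran from 2627 to 6177 bp, and the coefficient was 24.7% in the combined list, 23.5% in replicate 1 and 24.99% in replicate 2. That lies inside the range of the arm chains of 6 or more regions, 9.76 to 71.8%. What sequence lies there, and how reads that match several places were treated, was not analysed here.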

How the results depend on the processing

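Of 93 alternative values, 42 stayed within limits, 48 moved beyond them and 3 changed sign. The limits were the counting interval for shares, 1.5 times for counts, and for differences of medians the SD between the replicate lists (0.00077 for score and 1.41 bp for width), which is so small that nearly any change passes it. No paired analysis was possible because the input samples, which share replicate numbers with the ChIP samples, have no region list among the files used here. Numbers of chains depend directly on the rule. With spacings of up to 6000 bp there were 568 members in 125 chains (11.7% of regions), and with up to 10000 bp 1652 members (33.9%). With at least 3 regions there were 1877 members in 485 chains (38.6%), and with at least 5 there were 597 in 100 (12.3%). With the higher-scoring 50% of the list there were 190 in 44 (7.80%), and with regions found in both replicates 600 in 129 (15.8%). Single replicate lists gave 738 to 764 members in 158 to 160 chains (18.0 to 18.1%), and joining neighbours under 500 bp apart gave 16.8%.

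The median score of members minus that of other regions, 0.20 as reported, was 0.13, 0.20, 0.24, 0.15 and 0.36 with 6000 bp, 10000 bp, at least 3 regions, at least 5 regions and an edge gap of at most 5500 bp. It was -0.11 in the higher-scoring 50%, 0.19 among regions found in both replicates, 0.24 in single replicate lists (0.2396 to 0.2407) and 0.15 after joining. The median width difference, 34 bp as reported, was 29, 46, 21 and 110 bp with 6000 bp, at least 3 regions, at least 5 regions and edge gaps, 28.5 to 30.5 bp in single replicate lists, and -83 and -19 bp in the higher-scoring 50% and among regions found in both replicates. The cause of these reversals was not tested. In the higher-scoring 50%, 100% of members and 99.7% of other regions were in both replicates, 66.8 and 66.7% scored 2 or more, and 33.2% of members lay on X. Among regions found in both replicates 45.3% of members and 42.2% of others scored 2 or more, and in single replicate lists 41.7 to 42.8% and 38.6 to 40.2%. From a score of 3 the shares were 20.2% of members and 20.5% of others. The share in both replicates could not be had for single replicate lists. Widths of 2 to 3 kb limit how finely chains are resolved, and depth is unknown.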
